A study of Sus scrofa with 11 samples.

Results

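Collagen chain genes encode the polypeptides that assemble in threes into the triple helices of collagen, the main structural protein of the arterial wall. All genes of the count tables with a pig symbol of the form COL, number, A, number were taken, and those with at least 10 counts in 2 or more of the 11 libraries were kept. This gave 35 of 38 such symbols, among 25880 genes in the tables. They fall into 11 fibrillar chains, 5 basement membrane chains (all of type IV), 6 fibril-associated chains known as FACIT, and 13 other chains. COL10A1, COL22A1 and COL25A1 were under the count limit. No row matched COL4A1, COL7A1, COL9A2, COL19A1, COL20A1 or COL26A1, which were not analysed here.

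Fibrillar collagens, led in arteries by types I and III, form the cables that give a vessel its tensile strength. Type IV chains build the sheet-like network of basement membranes around smooth muscle cells and under the endothelium. FACIT chains sit on the surface of fibrils, and the other classes include the beaded filaments of type VI, the short chains of type VIII, the multiplexins XV and XVIII at basement membranes, and collagens that span the cell membrane. Collagen secretion needs enzymes that hydroxylate and fold the chains, proteases that trim them and oxidases that crosslink them.

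The libraries came from porcine coronary arteries, either native or kept in a bioreactor to model stent therapy ex vivo. Native vessels gave 2 libraries. Cultured vessels gave 2 libraries with a stent and no flow (Stent/Flow -, here stented static), 3 with a stent under the higher flow mark (Stent/Flow ++, stented high-flow), 2 without a stent under that flow mark (Flow ++, high-flow) and 2 without a stent under the lower mark (Flow +, low-flow). Breed, age, sex, flow rates and culture times are not stated in the sources used. Both stented static libraries carry a 3d mark and stented high-flow replicate 3 a 7d mark, whose meaning is not stated. Native replicate 2 and stented high-flow replicate 1 carry the same experiment number, 25. Whether replicate libraries stem from different animals is not in the labels, so p-values measure the spread between these libraries, which may be technical.

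Libraries totalled 13496636 to 26785124 counts, so 3 counts in a library corresponded to 0.112 to 0.222 counts per 1000000 (CPM). CPM values are on TMM-scaled library sizes, and libraries are listed in replicate order. Changes are log2 fold changes ± standard error from edgeR's quasi-likelihood test over 15348 genes, and a gene was called where its Benjamini-Hochberg adjusted p was under 0.05. Native libraries held 30778 and 38067 CPM of 8 summed smooth muscle markers, the defining markers MYH11 and ACTA2 among them, against 444 to 7570 CPM in the 9 cultured libraries. In tissue RNA, fewer cells of a type and less RNA per cell cannot be told apart.

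Collagen chains took 7.12% and 8.04% of all gene counts in native vessels, 3.74% and 6.19% in stented static vessels, 7.27%, 10.6% and 11.7% in stented high-flow vessels, 10.4% and 4.54% in high-flow vessels, and 9.44% and 9.39% in low-flow vessels. The group means were 7.58% ± 0.644 (SD, n = 2), 4.96% ± 1.73 (SD, n = 2), 9.83% ± 2.28 (SD, n = 3), 7.48% ± 4.16 (SD, n = 2) and 9.41% ± 0.0326 (SD, n = 2). Both stented static libraries lay below both native libraries and both low-flow libraries above them, while the 2 high-flow libraries lay on either side of them. The low-flow order did not hold on TMM-scaled totals. Native was then 8.74% ± 0.873 and low-flow 9.01% ± 0.310 (SD, n = 2 each), within the native spread. No test was made of these shares, and longer transcripts contribute more counts to them.

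**Figure D1:**
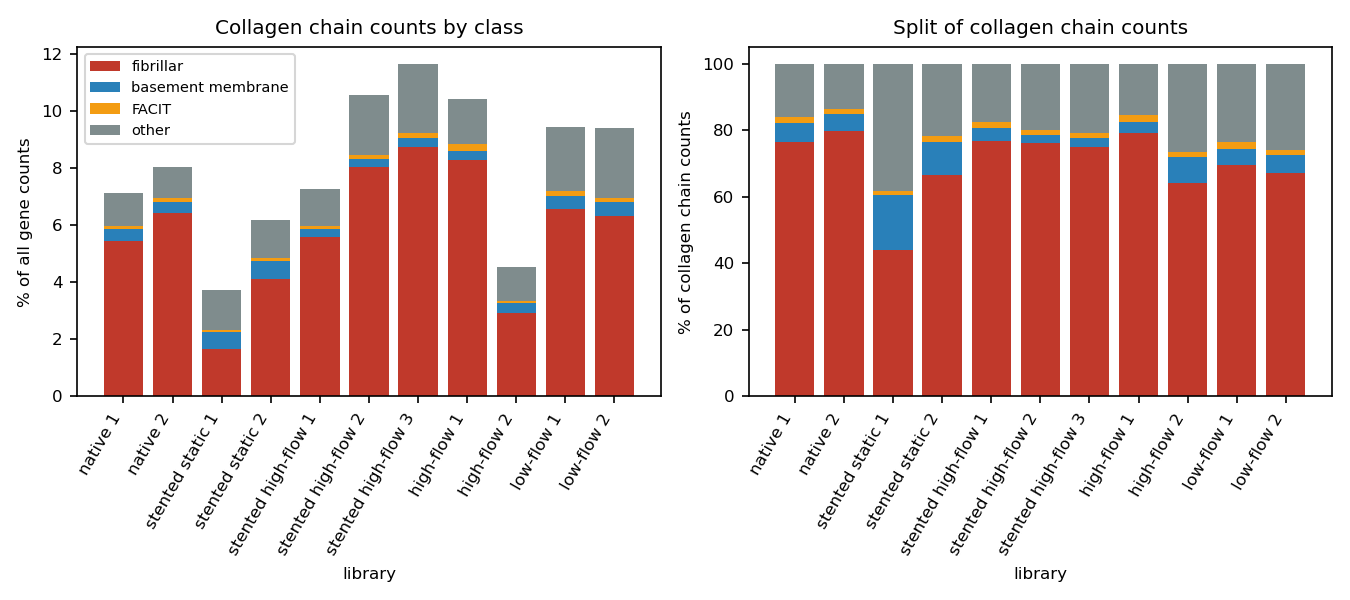
Left, percent of all gene counts from the 35 collagen chain genes in each of the 11 libraries, stacked by class, and right, the split of the collagen counts by class in percent. Stented static replicate 1 is lowest at 3.74% and stented high-flow replicate 3 highest at 11.7%.

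The make-up of the collagen counts also differed between libraries. Fibrillar chains supplied 76.4% and 79.8% of them in native vessels, 44.0% and 66.5% in stented static vessels, 76.8%, 76.1% and 75.0% in stented high-flow vessels, 79.3% and 64.0% in high-flow vessels, and 69.6% and 67.1% in low-flow vessels. The type VI chains supplied 9.58% and 7.80% in native vessels, 36.2% and 20.0% in stented static vessels, 15%, 18.3% and 19.7% in stented high-flow vessels, 13.9% and 22.6% in high-flow vessels, and 21.2% and 23.4% in low-flow vessels. Every cultured library thus had a larger type VI share than both native libraries. Type IV chains supplied 16.4% and 10.04% in stented static and 2.44% to 7.89% in the other 9 libraries. COL4A1, for which no row matched, is missing from the type IV share, and so from the total to which all these shares refer.

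More collagen chain genes fell than rose in each comparison with native vessels. COL11A2 reached the count limit through the native libraries only, so its fall was built in by that limit, and it is left out of the counts in this paragraph and the next. Of the other 34, 2 rose and 10 fell in stented static, where 12.7% of all tested genes were called, 5.54% higher and 7.19% lower. In stented high-flow 6 rose and 13 fell, where 24.3% of all genes were called, 10.4% higher and 13.9% lower. In high-flow 3 rose and 11 fell, beside 14.8% of all genes (5.94% higher, 8.86% lower). In low-flow 2 rose and 9 fell, beside 12.4% of all genes (5.03% higher, 7.38% lower). The median log2 fold change of the 34 genes was -1.95, -1.07, -1.01 and -0.22 in these comparisons, taken in that order, and that of all tested genes was 0.02, 0.06, 0.02 and 0.00. The 4 comparisons share the same 2 native libraries.

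The same 7 genes fell in all 4 comparisons: COL21A1, COL6A5, COL6A6, COL4A4, COL13A1, COL27A1 and COL18A1. COL6A3 rose in all 4, and 15 of the 34 genes were called in none. In 14 of the 34 (41.2%) all 9 cultured libraries lay below both native libraries, against 16.9% of all tested genes. COL9A1 is among these 14, and it too needed its native counts, 24 in each library, to pass the count limit. In culture it held 11 counts in stented static replicate 2 and at most 7 in the others. The limit thus favoured its place here. In 3 genes, COL6A3, COL16A1 and COL24A1, all 9 lay above, against 14.1% of all tested genes. Among the 22 chains with a mean of at least 10 CPM, a limit chosen after the values were seen, 2, 6, 3 and 2 rose and 5, 6, 6 and 3 fell in the 4 comparisons. The medians of these 22 were -1.36, 0.30, -0.13 and 0.12. That mean of 10 CPM includes the native libraries. COL6A6, at 153 and 101 CPM in native and a median of 6.05 CPM in culture, passed through them. The limit thus favoured its fall, which is counted in each of the 4 comparisons. In the other direction, COL11A1, at 7.62 and 8.69 CPM in native, passed through the libraries cultured under flow. The limit thus favoured its rises, which are counted in stented high-flow and high-flow.

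The counts depended on single libraries. Over all 35 genes, COL11A2 included, stented static gave 1 higher and 8 lower calls without native replicate 1 and 0 and 7 without native replicate 2. It gave 1 and 7 without its own replicate 1 and 1 and 13 without its replicate 2. Stented high-flow gave 1 higher and 10 lower calls without native replicate 1 and 0 and 10 without native replicate 2. Without its own replicates 1, 2 and 3 it gave 6 and 12, 4 and 14, and 5 and 10. High-flow gave 0 higher and 8 lower calls without either native library or its own replicate 1, and 5 and 10 without its replicate 2. Low-flow gave 1 higher call in each case, with 6 and 7 lower without native replicate 1 and 2 and 4 and 3 lower without its own. All 35 genes passed the filter on low counts of the fit.

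**Figure D2:**
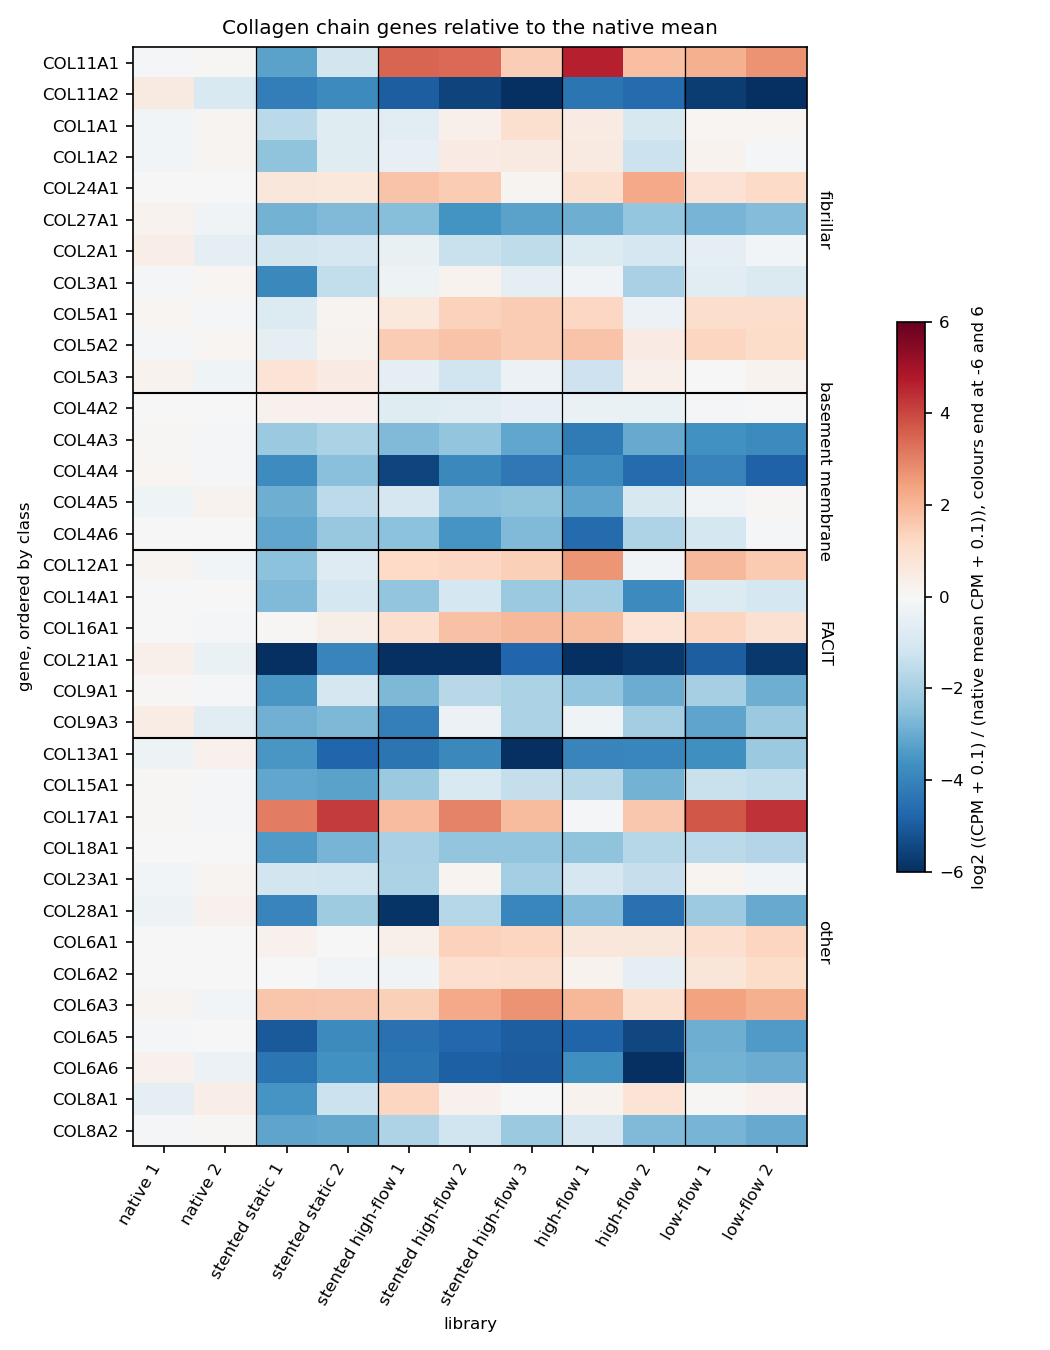
Level of the 35 collagen chain genes in each of the 11 libraries relative to the native mean, as the log2 ratio of CPM after adding 0.1 CPM, ordered by class. COL21A1, COL6A5, COL6A6 and COL4A4 are low in all 9 cultured libraries, and COL6A3 is high in all 9.

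Markers of other cells moved in the same comparisons. Of all tested genes, 7.19%, 13.9%, 8.86% and 7.38% fell in these comparisons and 5.54%, 10.4%, 5.94% and 5.03% rose, in the order of groups below. Of the 8 smooth muscle markers, 7, 6, 6 and 2 fell against native in stented static, stented high-flow, high-flow, then low-flow vessels, and none rose. Of 7 Schwann cell markers 4, 6, 5 and 2 fell, with sums of 862 to 905 CPM in native and 78.9 to 288 CPM in culture. Of 11 adventitial fibroblast markers 4, 4, 2 and 3 fell and 1, 2, 1 and 1 rose, and their sum was 4287 to 4794 CPM in native and 1965 to 7397 CPM in culture. Endothelial markers (9 tested) fell in 1, 6, 1 and 2 cases, from 940 to 1032 CPM in native to 283 to 1138 CPM in culture.

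Pericyte markers (6 tested) fell in 3, 4, 2 and 1 cases and rose in 1 of each, at 2373 to 2711 CPM in native and 1118 to 1753 CPM in culture. Macrophage markers (10 tested) rose in 3, 2, 2 and 2 cases and fell in 0, 1, 1 and 0, at 529 to 543 CPM in native and 334 to 2178 CPM in culture. Adipocyte markers (7 tested) fell in 0, 5, 3 and 1 cases, at 1916 to 2989 CPM in native, 251 to 2503 CPM in stented static and 30.1 to 277 CPM in the other cultures. Chondrocyte markers (5 tested) fell in 1, 1, 1 and 0 cases and rose in 0, 1, 1 and 0, at 63.6 to 81.0 CPM in native and 33.6 to 85.3 CPM in culture. Cardiomyocyte markers (6 tested) summed to 1332 CPM in native replicate 1, 19.2 CPM in native replicate 2 and at most 20.6 CPM in culture. Their 4 calls in each comparison, all lower, thus rest largely on native replicate 1 and are not read as a result. MYL3, at 126 and 3.45 CPM in native and at most 0.254 CPM in culture, passed the filter on low counts through its native libraries. The part of these cells in the collagen changes was not tested. At 0 counts in at least 1 library were the fat hormone genes ADIPOQ and LEP, the heart muscle genes TNNT2, ACTC1, MYL2 and MYL3, and the cartilage gene MATN3.

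Among the 11 fibrillar chains, the abundant chains of types I and III were called by edgeR in none of the 7 comparisons, and minor chains moved in opposite directions. COL27A1 fell in all 4 comparisons with native, while COL11A1 rose in stented high-flow and high-flow and COL5A2 in stented high-flow. Besides COL11A2, the called fibrillar chains numbered 1, 3, 2 and 1 of 10, in the same order of comparisons. These counts are near the 12.7%, 24.3%, 14.8% and 12.4% of all tested genes that were called.

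COL1A1 (ENSSSCG00000036135, chromosome 12, 26379087 to 26397180 in Sscrofa11.1) and COL1A2 encode the chains of type I collagen. COL1A1 stood at 20529 and 26006 CPM in native vessels, 7555 and 13850 in stented static vessels, 15024, 28860 and 44633 in stented high-flow vessels, 32870 and 12093 in high-flow vessels, and 24939 and 25428 in low-flow vessels. Its changes against native were -1.12 ± 0.58, 0.34 ± 0.53, -0.05 ± 0.57 and 0.11 ± 0.57 (edgeR adjusted p = 0.226, 0.677, 0.968 and 0.923). Only the stented static libraries lay wholly below the native ones, and the stented high-flow libraries spread to either side of them. COL1A2 gave -1.35 ± 0.65, 0.26 ± 0.59, -0.11 ± 0.64 and 0.06 ± 0.64.

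COL3A1 (ENSSSCG00000016034, chromosome 15, 93556914 to 93595678), the single chain of type III collagen in distensible tissues, stood at 27492 and 32364 CPM in native and 2057 and 10903 in stented static. It was 23848, 34708 and 20725 CPM in stented high-flow vessels, 25724 and 7842 in high-flow vessels, and 18673 and 16212 in low-flow vessels. Stented static, high-flow and low-flow libraries all lay below native, but the changes were -2.21 ± 0.73, -0.18 ± 0.63, -0.83 ± 0.70 and -0.78 ± 0.70 and none passed (edgeR adjusted p = 0.0701, 0.864, 0.465 and 0.508). Its share of the collagen counts was 33.9% and 34.6% in native vessels, only 6.36% and 20.4% in stented static vessels, and 17.1% to 33.9% in the other cultures.

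COL27A1 (ENSSSCG00000005487, chromosome 1, 254768576 to 254924893) encodes a fibrillar chain best known from cartilage. It stood at 368 and 276 CPM in native vessels, 44.8 and 50.9 in stented static vessels, 54.4, 26.8 and 35.1 in stented high-flow vessels, 41.6 and 64.4 in high-flow vessels, and 46.2 and 53.9 in low-flow vessels. Every cultured library lay far below both native libraries. The changes were -2.75 ± 0.38, -3.06 ± 0.33, -2.60 ± 0.37 and -2.69 ± 0.37 (edgeR adjusted p = 0.00163, 0.000195, 0.00197 and 0.00189), and each call was kept when any library of its comparison was left out.

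COL11A1 (ENSSSCG00000006857, chromosome 4, 115638381 to 115841679) encodes a type XI chain that nucleates thin fibrils. It stood at 7.62 and 8.69 CPM in native vessels, 0.790 and 3.71 in stented static vessels, 93.5, 87.9 and 22.8 in stented high-flow vessels, 207 and 28.8 in high-flow vessels, and 36.1 and 53.6 in low-flow vessels. All 7 libraries cultured under flow lay above native and both stented static libraries below. It rose by 3.06 ± 0.91 in stented high-flow vessels and 3.85 ± 0.97 in high-flow vessels (edgeR adjusted p = 0.0314 and 0.0233), while stented static and low-flow gave -1.90 ± 0.95 and 2.46 ± 0.92 (adjusted p = 0.211 and 0.105). Without high-flow replicate 1 the high-flow change was 1.83.

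COL11A2, the partner chain of type XI, stood at 10.7 and 3.85 CPM in native and 0 to 0.426 CPM in culture, where no library held more than 8 counts. It was kept for its native counts alone, so its levels are given with no test. Stented high-flow held 3 counts in all and low-flow held 1, against 232 in native. The native libraries themselves differed, at 165 and 67 counts.

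The type V chains, which start type I fibrils and set their width, gave 1 call against native. COL5A2 (ENSSSCG00000016035, chromosome 15, 93611856 to 93981131) stood at 1235 and 1464 CPM in native vessels, 906 and 1576 in stented static vessels, 3903, 4429 and 3831 in stented high-flow vessels, 4467 and 1875 in high-flow vessels, and 3273 and 2937 in low-flow vessels. All 7 libraries cultured under flow were higher than native, and it rose by 1.59 ± 0.40 in stented high-flow (edgeR adjusted p = 0.0157), with 1.23 ± 0.42 and 1.20 ± 0.42 in high-flow and low-flow (0.0721 and 0.0859). COL5A1 was 1826 and 1549 CPM in native and 952 to 4839 CPM in culture, and was not called, at 1.23 ± 0.48 in stented high-flow (0.0880). COL5A3 was 267 and 366 CPM in native and 133 to 560 CPM in culture, and was not called.

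COL24A1, a minor fibrillar chain, stood at 1.04 CPM in both native libraries and 1.17 to 5.34 CPM in culture, uncalled. COL2A1, the cartilage type II chain, stayed between 0.187 and 0.977 CPM in all 11 libraries. Leaving out single libraries ended calls of COL11A1 or COL5A2. The adjusted p-values were then 0.137 to 0.177 without native replicate 1, 0.0799 to 0.147 without native replicate 2, 0.186 to 0.318 without stented static replicate 1, 0.0534 to 0.122 without stented high-flow replicate 1 or 2, 0.0690 without its replicate 3, and 0.229 without high-flow replicate 1.

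**Figure D3:**
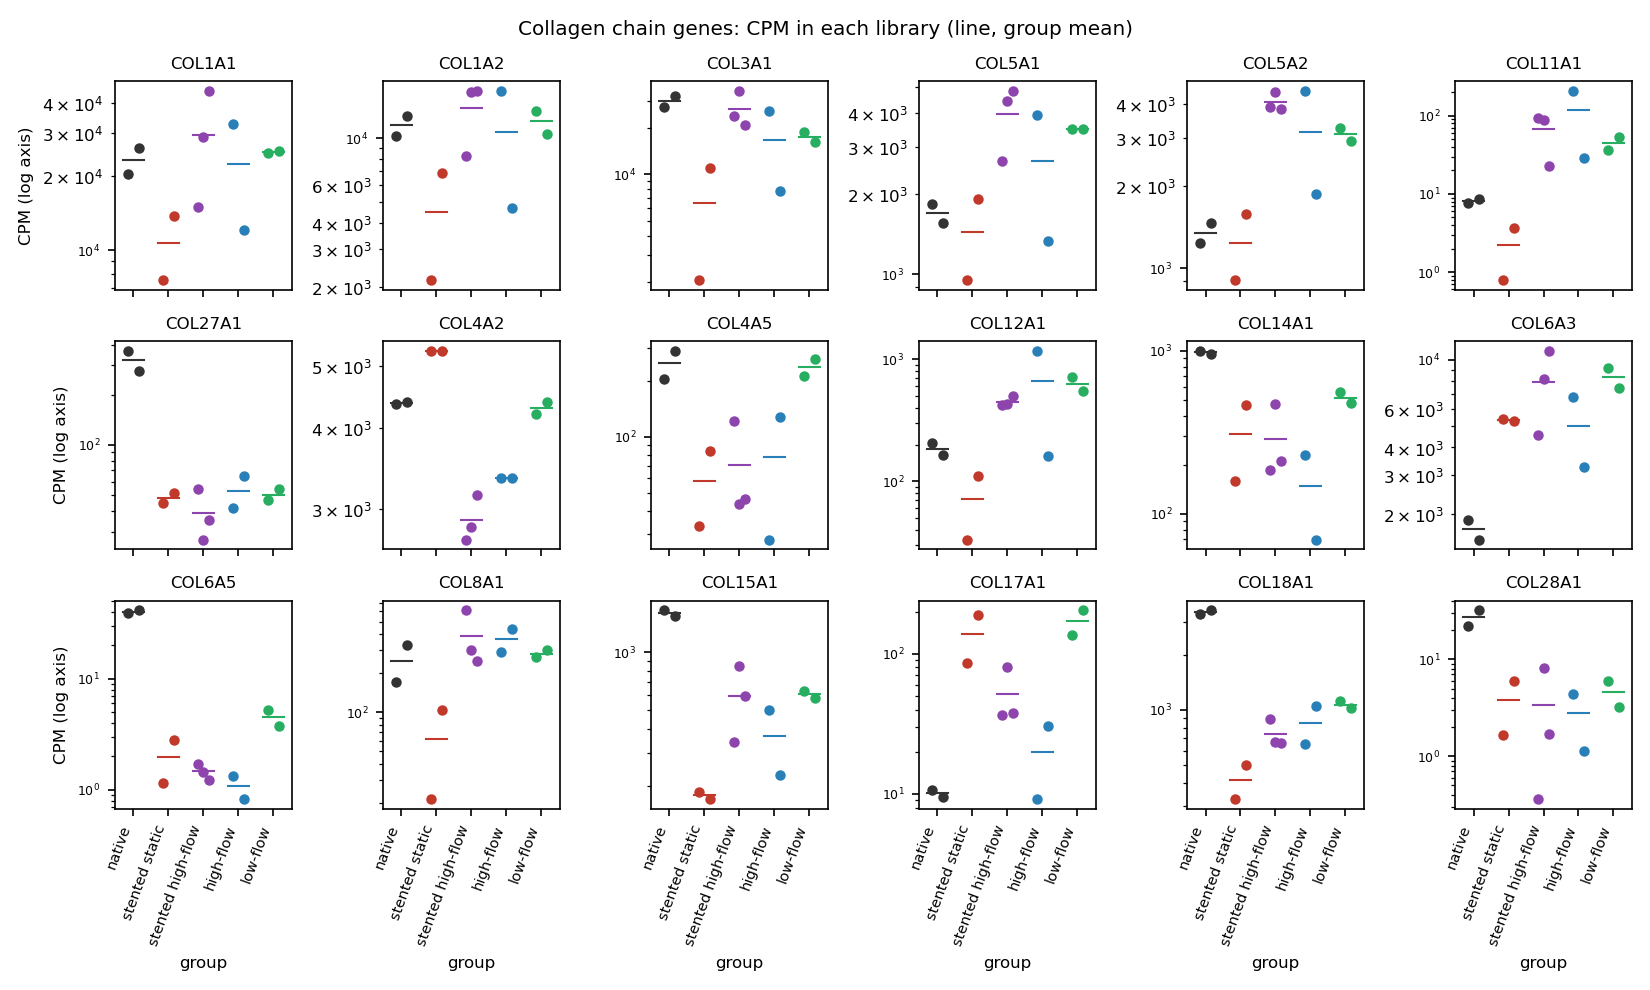
CPM on a log axis in each library for collagen chain genes from the classes described, with points for libraries and a line at each group mean. COL27A1, COL18A1 and COL6A5 lie below native in all 9 cultured libraries and COL6A3 above, while COL1A1 overlaps.

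Among the 5 basement membrane chains, COL4A4 fell in all 4 comparisons, COL4A3 and COL4A6 fell in 3 each, and COL4A2 and COL4A5 were called in none. The called chains numbered 2, 3, 3 and 2 of 5, all lower, beside 7.19%, 13.9%, 8.86% and 7.38% of all tested genes called lower. COL4A2 (ENSSSCG00000009545, chromosome 11, 76996885 to 77161617) encodes a chain of the type IV network found in nearly all basement membranes. It stood at 4367 and 4389 CPM in native vessels, 5274 and 5282 in stented static vessels, 2688, 2808 and 3157 in stented high-flow vessels, 3354 and 3348 in high-flow vessels, and 4207 and 4396 in low-flow vessels. Replicates lay close together, and the changes of 0.27 ± 0.27, -0.60 ± 0.25, -0.39 ± 0.27 and -0.03 ± 0.27 were not called (edgeR adjusted p = 0.551, 0.0991, 0.376 and 0.967).

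COL4A3 and COL4A4 encode chains of a second type IV network, known from the kidney filter. COL4A4 (ENSSSCG00000016244, chromosome 15, 128472228 to 128612302) stood at 11.9 and 10.1 CPM in native vessels, 0.711 and 1.82 in stented static vessels, 0.144, 0.673 and 0.468 in stented high-flow vessels, 0.712 and 0.359 in high-flow vessels, and 0.600 and 0.280 in low-flow vessels. All 9 cultured libraries lay below native, with changes of -3.13 ± 0.71, -4.63 ± 0.66, -4.35 ± 0.76 and -4.64 ± 0.77 (edgeR adjusted p = 0.0174, 0.000861, 0.00460 and 0.00413). COL4A3 changed by -2.98 ± 0.63, -4.11 ± 0.79 and -4.50 ± 0.80 in the latter 3 comparisons (0.00716, 0.00733 and 0.00618), and gave -2.22 ± 0.69 in stented static (0.0593). The annotated spans of the 2 genes overlap by 663 bases, and no source used here says that reads were counted by strand.

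COL4A5 and COL4A6 pair in the basement membrane of smooth muscle. COL4A6 (ENSSSCG00000012571, chromosome X, 88634925 to 88750938) stood at 53.9 and 54.6 CPM in native vessels, 6.13 and 11.01 in stented static vessels, 9.69, 4.60 and 8.62 in stented high-flow vessels, 2.09 and 15.1 in high-flow vessels, and 26.4 and 50.3 in low-flow vessels. It changed by -2.67 ± 0.74, -2.83 ± 0.64 and -2.65 ± 0.74 in the first 3 (edgeR adjusted p = 0.0385, 0.00968 and 0.0343), while the low-flow change was -0.50 ± 0.69 (0.685). Low-flow libraries were the nearest to native for COL4A6, and their smooth muscle marker sums, 7503 and 7570 CPM, were also the highest in culture. A link between the 2 was not tested. COL4A5 had a like order, with 205 and 292 CPM in native, 27.98 to 127 CPM in the first 3 cultured groups and 214 and 262 CPM in low-flow, but it was called in none.

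Type IV calls of COL4A3, COL4A4 or COL4A6 were lost without native replicate 1 or 2 (adjusted p = 0.0812 to 0.143), stented static replicate 1 (0.109 to 0.188) or 2 (0.0663), high-flow replicate 1 (0.0658 to 0.107), and low-flow replicate 1 (0.0743) or 2 (0.0642 to 0.0810). Without high-flow replicate 2 the COL4A6 change in high-flow was -4.65. The calls of COL4A3, COL4A4 and COL4A6 in stented high-flow were kept whichever library was left out.

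Of the 6 FACIT chains, COL21A1 fell in all 4 comparisons, COL14A1 fell in 2 and COL16A1 rose in 2. The called chains numbered 1, 3, 3 and 1 of 6, beside 12.7%, 24.3%, 14.8% and 12.4% of all tested genes. COL21A1 (ENSSSCG00000001500, chromosome 7, 29414851 to 29609039), a chain found in the matrix of vessel walls, stood at 28.1 and 17.1 CPM in native. It dropped to 0.158 and 1.34 CPM in stented static vessels, 0.215, 0.168 and 0.750 in stented high-flow vessels, 0.204 and 0.308 in high-flow vessels, and 0.642 and 0.315 in low-flow vessels. Several of these values are a few counts. Its changes of -4.98 ± 0.93, -5.82 ± 0.82, -6.43 ± 1.02 and -5.56 ± 0.95 passed (edgeR adjusted p = 0.00723, 0.000818, 0.00274 and 0.00496) and were the deepest fitted falls of the 35 genes in stented static and high-flow.

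COL14A1 and COL12A1 encode the FACIT chains that bind type I fibrils in soft tissue. COL14A1 stood at 1006 and 952 CPM in native vessels, 158 and 464 in stented static vessels, 187, 470 and 211 in stented high-flow vessels, 229 and 69.5 in high-flow vessels, and 557 and 478 in low-flow vessels. All cultured libraries were below native, and it changed by -1.76 ± 0.56 in stented high-flow vessels and -2.71 ± 0.66 in high-flow vessels (edgeR adjusted p = 0.0424 and 0.0207). COL12A1 stood at 207 and 164 CPM in native vessels, 33.3 and 110 in stented static vessels, 419, 433 and 497 in stented high-flow vessels, 1176 and 160 in high-flow vessels, and 711 and 552 in low-flow vessels. It was called in none of the 4, with 1.28 ± 0.69, 1.85 ± 0.74 and 1.77 ± 0.74 in the 3 groups under flow (0.203, 0.120 and 0.143).

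COL16A1, a FACIT chain of vessel and skin matrix, stood at 257 and 240 CPM in native vessels, 257 and 316 in stented static vessels, 500, 828 and 963 in stented high-flow vessels, 928 and 438 in high-flow vessels, and 599 and 462 in low-flow vessels. The 7 libraries under flow were all higher than native, and it rose by 1.62 ± 0.39 in stented high-flow vessels and 1.46 ± 0.41 in high-flow vessels (edgeR adjusted p = 0.0123 and 0.0353). Without high-flow replicate 1 the latter was 0.82 (adjusted p = 0.271). COL9A1 and COL9A3, the type IX chains of cartilage fibrils, were not called. COL9A1 was at most 1.56 CPM in any library, and COL9A3 was 7.29 and 3.34 CPM in native and 0.215 to 4.38 CPM in culture.

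FACIT calls were also lost without native replicate 1 (COL14A1 and COL16A1, adjusted p = 0.0843 to 0.169) or 2 (0.0798 to 0.177). COL14A1 was lost without stented high-flow replicate 1 or 3 (0.0942 and 0.105) or high-flow replicate 2 (0.115), and COL21A1 in low-flow without low-flow replicate 1 or 2 (0.0511 and 0.0698).

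The type VI chains, which form beaded filaments near cell surfaces, split in 2 ways. COL6A3 rose and its alternative chains COL6A5 and COL6A6 fell in all 4 comparisons. COL6A3 (ENSSSCG00000027331, chromosome 15, 137011549 to 137103687) stood at 1878 and 1526 CPM in native vessels, 5373 and 5286 in stented static vessels, 4561, 8147 and 11002 in stented high-flow vessels, 6763 and 3275 in high-flow vessels, and 9153 and 7469 in low-flow vessels. Every cultured library was above native, with changes of 1.65 ± 0.46, 2.21 ± 0.45, 1.56 ± 0.46 and 2.29 ± 0.47 (edgeR adjusted p = 0.0402, 0.00559, 0.0441 and 0.0119). Without high-flow replicate 1 the high-flow change was 0.95 (0.280).

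COL6A5 (ENSSSCG00000011186, chromosome 13, 2029543 to 2174404) can take the place of COL6A3 in the trimer. It stood at 38.9 and 41.6 CPM in native vessels, 1.15 and 2.80 in stented static vessels, 1.72, 1.46 and 1.22 in stented high-flow vessels, 1.32 and 0.821 in high-flow vessels, and 5.27 and 3.74 in low-flow vessels. Low-flow libraries were the highest in culture and still far below native. The changes of -4.37 ± 0.50, -4.78 ± 0.43, -5.22 ± 0.52 and -3.16 ± 0.46 passed (edgeR adjusted p = 0.000804, 0.000115, 0.000522 and 0.00237), and each was kept when any library of its comparison was left out.

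COL6A6, 43574 bases from COL6A5 on chromosome 13, stood at 153 and 101 CPM in native vessels, 6.05 and 10.2 in stented static vessels, 6.03, 4.10 and 3.89 in stented high-flow vessels, 9.87 and 1.85 in high-flow vessels, and 17.5 and 16.04 in low-flow vessels. It was again highest in low-flow among the cultures, and fell in all 4, changing by -3.97 ± 0.65, -4.77 ± 0.57, -4.43 ± 0.66 and -2.92 ± 0.61 (edgeR adjusted p = 0.00374, 0.000347, 0.00225 and 0.0127). COL6A1 stood at 3193 and 3076 CPM in native and 3165 to 8266 CPM in culture, and its change of 1.07 ± 0.36 in stented high-flow was at the threshold, with an edgeR adjusted p of 0.0490. That call ended with RLE size factors (0.0543), at least 10 counts in every library (0.0712), collagen genes left out of the scaling (0.0505), only the 2 groups (0.103) or 1 count table (0.0936). It also ended in 4 of the 5 fits that left out 1 library (0.111 to 0.208), all but the one without stented high-flow replicate 1. COL6A2, the third chain of the common trimer, was called in none.

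The multiplexins carry long interrupted helices at the outer face of basement membranes. COL18A1 (ENSSSCG00000038089, chromosome 13, 207907835 to 207984082), whose cleaved end is endostatin, stood at 3330 and 3490 CPM in native vessels, 326 and 500 in stented static vessels, 889, 667 and 657 in stented high-flow vessels, 650 and 1046 in high-flow vessels, and 1116 and 1023 in low-flow vessels. Its level was lower in all 9 cultured libraries and lowest in stented static. It changed by -3.05 ± 0.36, -2.21 ± 0.30, -2.01 ± 0.35 and -1.67 ± 0.34 (edgeR adjusted p = 0.000897, 0.000732, 0.00437 and 0.0114). COL15A1 stood at 1664 and 1543 CPM in native vessels, 187 and 171 in stented static vessels, 339, 847 and 595 in stented high-flow vessels, 503 and 228 in high-flow vessels, and 633 and 576 in low-flow vessels, again lower throughout and lowest in stented static. It changed by -3.16 ± 0.48, -1.43 ± 0.40 and -2.13 ± 0.46 in the first 3 (0.00257, 0.0231 and 0.0116) and gave -1.41 ± 0.45 in low-flow (0.0631).

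The collagens that span the cell membrane moved in opposite directions. COL17A1 (ENSSSCG00000010607, chromosome 14, 114959404 to 115007734), known from the hemidesmosomes of skin, stood at 10.6 and 9.55 CPM in native vessels, 86.6 and 189 in stented static vessels, 36.3, 80.2 and 37.8 in stented high-flow vessels, 9.16 and 30.6 in high-flow vessels, and 136 and 205 in low-flow vessels. High-flow replicate 1 was the only cultured library at or below the native level. It rose by 3.77 ± 0.64, 2.35 ± 0.58 and 4.08 ± 0.65 in stented static, stented high-flow and low-flow (edgeR adjusted p = 0.00454, 0.0141 and 0.00344) and gave 0.98 ± 0.59 in high-flow (0.293). COL13A1, a transmembrane collagen of cell adhesion sites, stood at 13.9 and 20.4 CPM in native and 0.141 to 3.53 CPM in culture, and changed by -4.09 ± 0.82, -4.75 ± 0.73, -4.06 ± 0.82 and -2.84 ± 0.77 (0.0105, 0.00130, 0.00932 and 0.0350). COL23A1 stood at 7.62 and 9.43 CPM in native and 1.97 to 9.65 CPM in culture, uncalled.

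The short chains of type VIII are made by smooth muscle and endothelial cells. COL8A1 stood at 171 and 329 CPM in native vessels, 21.4 and 104 in stented static vessels, 613, 302 and 250 in stented high-flow vessels, 292 and 440 in high-flow vessels, and 267 and 300 in low-flow vessels, and was not called (edgeR adjusted p = 0.0719 in stented static, 0.475 to 0.886 in the other groups). Only the stented static libraries lay below native. COL8A2 stood at 4.10 and 4.66 CPM in native and 0.395 to 2.14 CPM in culture, and fell in stented static, stented high-flow and low-flow (edgeR adjusted p = 0.0126, 0.0444 and 0.0161). Its stented high-flow and low-flow calls were lost whichever library of the comparison was left out. Its stented static call was lost without native replicate 2 or stented static replicate 1. COL28A1, a collagen related to type VI and known from peripheral nerve, stood at 22.0 and 32.3 CPM in native and 0.359 to 8.13 CPM in culture. It fell by 2.99 ± 0.96 in stented high-flow (0.0430) and was not called in the other groups. Schwann cell markers fell in 4, 6, 5 and 2 cases of 7 in the 4 comparisons, and their part was not tested. Without stented high-flow replicate 2 the COL28A1 change in stented high-flow was -4.67. The COL28A1 call was lost without native replicate 1 (0.108) or 2 (0.177), without stented high-flow replicate 1 (0.0555) or 3 (0.103), and within 1 count table (0.0663).

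In these 13 other chains 8, 10, 6 and 7 were called in the 4 comparisons, beside 12.7%, 24.3%, 14.8% and 12.4% of all tested genes. Leaving out native replicate 1 or 2 ended 13 and 17 of these calls (adjusted p = 0.0563 to 0.208 and 0.0547 to 0.231). Leaving out stented static replicate 1 or 2 ended 2 and 1 (0.0779 to 0.114), and stented high-flow replicate 1, 2 or 3 ended 2, 2 and 4 (0.0504 to 0.141). Without high-flow replicate 1 or 2, 2 and 2 were lost (0.0587 to 0.280), and without low-flow replicate 1 or 2, 5 and 5 (0.0518 to 0.237). COL6A3 lost its calls in stented static and low-flow whichever of the 4 libraries was left out. Its high-flow call was lost without either native library or high-flow replicate 1, and its stented high-flow call without native replicate 2. With at least 10 counts in every library its high-flow call ended too (edgeR adjusted p = 0.0571), as did its stented static call within 1 count table (0.0600). COL18A1 kept its calls in all but low-flow.

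**Figure D4:**
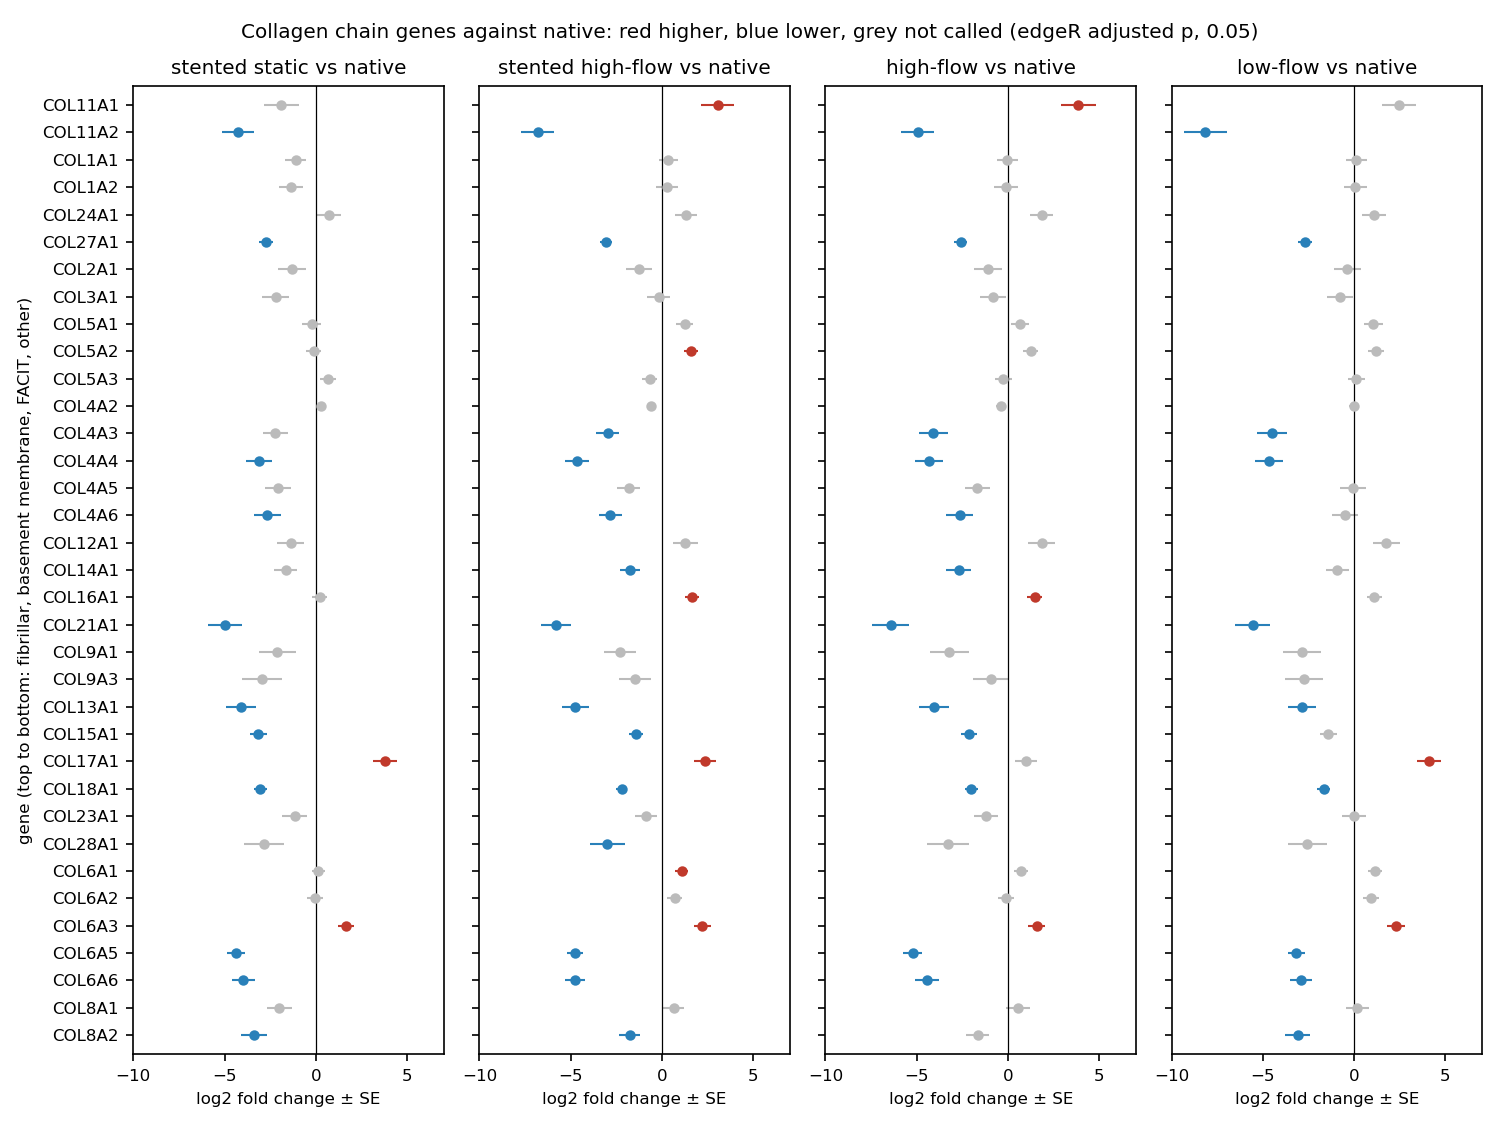
Log2 fold change against native with standard error for the 35 collagen chain genes in the 4 cultured groups, ordered by class. Points are red for genes called higher and blue for genes called lower at an adjusted p under 0.05, and grey for genes not called. COL6A5, COL27A1 and COL18A1 are blue and below 0 in all 4 groups, and COL6A3 is red and above 0 in all 4. COL11A2 is also drawn, though the count limit alone favoured its fall.

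Counts of chains that assemble together were compared within each library, where transcript length cancels between libraries. The ratio of COL6A1 to COL6A3 counts was 1.70 and 2.02 in native vessels, 0.693 and 0.599 in stented static vessels, 0.840, 1.01 and 0.699 in stented high-flow vessels, 0.742 and 1.55 in high-flow vessels, and 0.685 and 1.03 in low-flow vessels. All 9 cultured libraries lay below both native ones. The ratio of COL6A1 to COL6A2 was 1.27 and 1.20 in native and 1.41 to 3.03 in culture, higher throughout.

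The type I chains kept a narrower ratio. COL1A1 to COL1A2 was 2.01 and 2.04 in native and 1.76 to 2.68 in 8 of the cultured libraries, with 3.51 in stented static replicate 1. COL5A1 to COL5A2 was 1.48 and 1.06 in native and 0.678 to 1.26 in culture, with overlap. COL1A1 to COL3A1, a pair of different collagens added after the values were seen, was 0.747 and 0.804 in native vessels, 3.67 and 1.27 in stented static vessels, 0.630, 0.832 and 2.15 in stented high-flow vessels, 1.28 and 1.54 in high-flow vessels, and 1.34 and 1.57 in low-flow vessels.

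**Figure D5:**
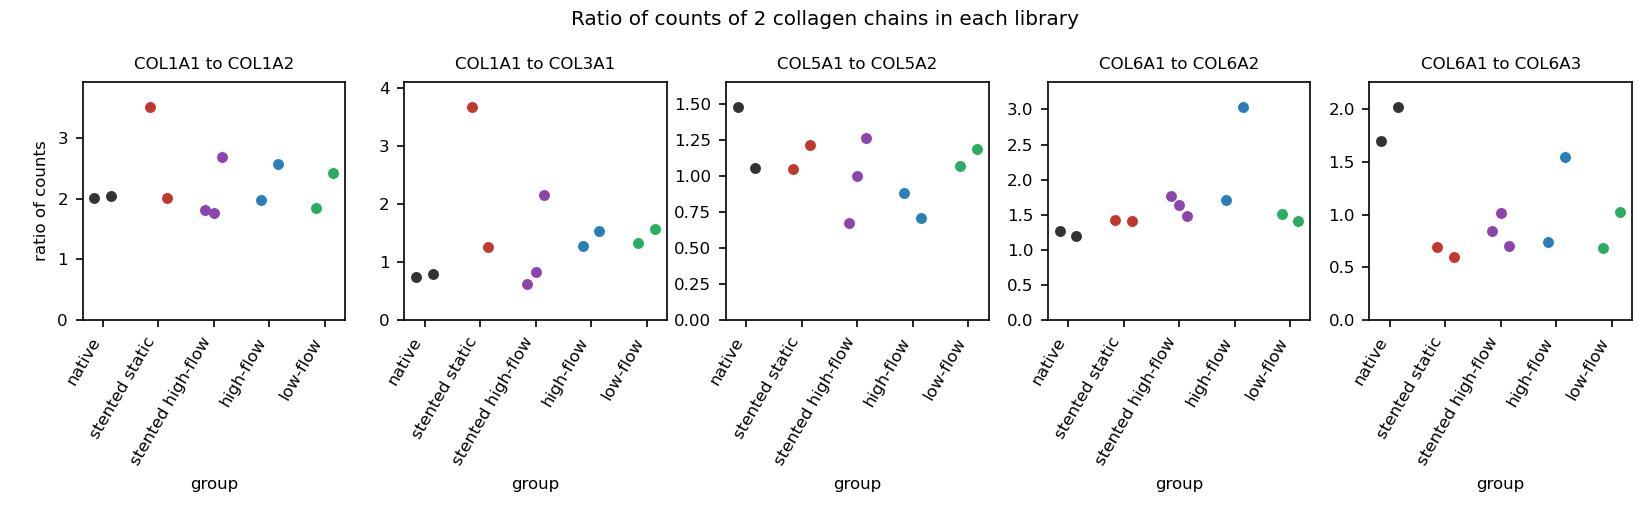
Ratio of the counts of 2 collagen chains in each library, with 1 panel per pair and points for libraries by group. COL6A1 to COL6A3 is below native in all 9 cultured libraries, and COL1A1 to COL1A2 is highest in stented static replicate 1 at 3.51.

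Few collagen chains were called between cultured groups. Flow in stented vessels was addressed by stented high-flow against stented static, in which 2 of 35 collagen chains rose and none fell, and 2.85% of all genes were called, 1.18% higher and 1.67% lower. COL11A1 rose by 4.96 ± 1.02 and COL5A2 by 1.71 ± 0.40 (edgeR adjusted p = 0.0312 and 0.0488). All 3 stented high-flow libraries lay above both stented static ones for both genes. COL15A1 at 1.73 ± 0.43 and COL8A1 at 2.63 ± 0.65 were just short of the threshold (0.0577 and 0.0578), and COL3A1 gave 2.03 ± 0.69 (0.138). DESeq2 called 12 chains here, 10 higher and 2 lower, with COL1A1, COL1A2 and COL3A1 among those higher (DESeq2 adjusted p = 0.0470, 0.0489 and 0.0135). With no filter on low counts edgeR called 9, COL3A1 among them (0.0324).

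The 2 calls did not hold without stented static replicate 1 or stented high-flow replicate 2, which left 0. There were 4 calls without stented high-flow replicate 1, 1 without its replicate 3 and 5 without stented static replicate 2. COL5A2 was among these only in the last case, and gave adjusted p-values of 0.0631 and 0.0690 without stented high-flow replicate 1 and 3. It was also lost with RLE size factors (0.0505), at least 10 counts in every library (0.0593), 1 count table (0.0666) or only the 2 groups (0.157), the last of which ended COL11A1 too (0.0972). The marks 3d and 7d differ between these groups, and time in culture cannot be told apart from flow if they stand for it. In the same comparison 5 of 7 adipocyte, 1 of 7 Schwann cell (ERBB3) and 1 of 10 macrophage (CD163) markers fell, and 1 of 8 smooth muscle and 1 of 11 adventitial fibroblast markers rose. The last was SFRP1, at 2.86 ± 0.40 (edgeR adjusted p = 0.0073), and the markers' part in the collagen values was not tested.

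Low-flow against high-flow asks about the strength of flow without a stent, and no collagen chain was called, where 0.104% of all genes were, 0.0261% higher and 0.0782% lower. At an unadjusted p under 0.05 there were 8 chains, and DESeq2 called 2. COL17A1 was 3.10 ± 0.62 higher in low-flow, both of its libraries lying above both high-flow ones (edgeR adjusted p = 0.185) and was called by DESeq2 (5.47e-05) and with no filter (0.00395). COL6A5 gave 2.06 ± 0.47 (edgeR adjusted p = 0.288, DESeq2 0.00847).

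Stented high-flow against high-flow addresses the stent under flow. No collagen chain was called by edgeR or DESeq2, and edgeR called 0.0% of all genes. At an unadjusted p under 0.05 there was 1 chain, COL17A1, at 1.37 ± 0.55 (adjusted p = 1.0). The median change of the 35 chains was 0.16 here, 0.36 in low-flow against high-flow and 0.28 in stented high-flow against stented static.

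Genes that fold, process, organise, bind or degrade collagen were counted in the same fits. Of all tested genes, 5.54%, 10.4%, 5.94% and 5.03% rose and 7.19%, 13.9%, 8.86% and 7.38% fell against native, in the same order of groups. Of 17 folding and modification enzymes, 5, 13, 12 and 7 rose and 1, 2, 2 and 2 fell in the 4 comparisons with native, in the same order. P4HA3, a prolyl hydroxylase subunit, rose by 3.29 ± 0.39 in stented high-flow vessels and 3.24 ± 0.40 in high-flow vessels (edgeR adjusted p = 0.000321 and 0.000980). P3H2, which hydroxylates prolines of basement membrane collagen, changed by -3.11 ± 0.44, -3.59 ± 0.38, -3.73 ± 0.45 and -3.97 ± 0.46 in the 4 comparisons. COLGALT2, a collagen galactosyltransferase, changed by -3.92 ± 0.64, -4.11 ± 0.75 and -3.62 ± 0.73 in the 3 groups under flow.

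Of 14 genes for procollagen processing and crosslinking, 2, 4, 3 and 2 rose and 1, 1, 1 and 0 fell. The low-flow count is near the 12.4% of all tested genes called there. The crosslinking oxidase LOXL2 rose by 2.58 ± 0.51, 3.66 ± 0.51, 1.98 ± 0.50 and 2.84 ± 0.51, and LOXL4 by 2.18 ± 0.48, 3.59 ± 0.48, 3.33 ± 0.50 and 2.74 ± 0.48. Of 18 fibril organisers, 0, 3, 1 and 1 rose and 5, 3, 4 and 2 fell. Tenascin-X, TNXB, which spaces collagen fibrils, changed by -2.82 ± 0.54, -5.71 ± 0.51, -5.89 ± 0.62 and -5.01 ± 0.59. Fibronectin, FN1, on which new fibrils assemble, rose by 4.21 ± 0.70, 3.04 ± 0.68 and 3.78 ± 0.70 in the 3 groups under flow.

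Of 9 collagen receptors, 1, 4, 2 and 2 rose and none fell, and the integrin chain ITGA10 rose by 1.49 ± 0.29, 2.48 ± 0.28, 2.67 ± 0.30 and 2.23 ± 0.30. Of 11 genes for collagen degradation, 7, 7, 6 and 7 rose and 0, 2, 2 and 1 fell. The gelatinase MMP9 and the collagenase MMP1 held only a few counts in native and passed the filter on low counts through the cultured libraries. The filter thus favoured their rises, which are among the counts just given. Their levels against native are therefore given with counting intervals and no test. MMP9 was higher than native in all 4 groups. It held 3 counts in all in native, and 88 to 680 counts a library in stented static, 2521 to 5179 in stented high-flow, 6176 to 6889 in high-flow and 4166 to 13731 in low-flow. Per total count this was 268 (95% counting interval 91.3 to 1301), 2384 (816 to 11563), 4220 (1444 to 20467) and 4538 (1553 to 22008) times the native level. MMP9 also rose in stented high-flow against stented static, by 3.59 ± 0.67 (edgeR adjusted p = 0.0208). MMP1 held 2 counts in all in native. Stented static stood at 584 (161 to 4829) and stented high-flow at 165 (45.6 to 1370) times that level. High-flow stood at 47.5 (12.8 to 398) and low-flow at 308 (85.0 to 2548) times the native level of MMP1. Its libraries differed widely, with 40 to 1077 counts in stented static, 12 to 319 in stented high-flow, 29 to 69 in high-flow and 162 to 648 in low-flow. The pooled intervals of MMP9 and MMP1 leave out this spread between libraries. The lysosomal protease CTSL rose by 4.39 ± 0.86 in stented static and 3.86 ± 0.84 in low-flow (edgeR adjusted p = 0.00926 and 0.0147). The protease inhibitor TIMP1 rose by 4.34 ± 0.42 in stented high-flow vessels and 4.85 ± 0.45 in high-flow vessels, and TIMP4 fell by 3.94 ± 0.59 in high-flow.

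The authors' deposited tables of changed genes list 12, 11, 12 and 10 collagen chain genes in the 4 comparisons with native, in the order used above. Of these 45 entries 44 had a call of the same sign in edgeR. The exception was COL28A1 in high-flow, with an edgeR adjusted p of 0.0746.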

How the data were processed

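The deposited values are raw gene counts in 2 tables, which were joined by gene identifier and whose native columns are identical. RNA was column-purified with DNase treatment and paired-end libraries were made, per the labels' protocols. Trimmomatic, FastQC, DESeq2 and Sscrofa11.1 are named in the submitters' processing notes, and no source used here names the aligner, strandedness or annotation release. The authors' deposited lists of changed genes give only a log2 fold change per gene and served to compare calls. Counts were fitted in R 4.3.3 with edgeR 4.0.16 (filterByExpr, TMM, quasi-likelihood test, 1 joint fit of 5 groups, 6 residual degrees of freedom), with Benjamini-Hochberg adjustment over 15348 genes at 0.05, and DESeq2 1.42.0 was an alternative. The script was tested on simulated data. Positions of genes were looked up by symbol in RefSeq annotation of Sscrofa11.1. COL6A1 had no match and COL6A2 lies on an unplaced sequence. No sequences are shown. Every collagen chain gene is named, and from the other lists a few of the called members with the largest changes. COL11A2 reached the count limit in native libraries alone and is given with no test. The members and lists were chosen with earlier results of these data known.

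Alternatives were RLE size factors, no filter on low counts, a stricter one of at least 10 counts in each library, collagen genes left out of the scaling, only the compared groups, only 1 count table, a replicate block, and each library left out in turn. For shares, they were mitochondrial genes left out and TMM-scaled totals. Totals of 13496636 to 26785124 counts limit precision only for chains with a few counts.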

Additional observations from a re-analysis of the deposited data

How the results depend on the processing

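Calls of single genes rest on 2 or 3 libraries a group, and depth limits only chains of a few counts, such as COL11A2, COL21A1, COL4A3 and COL9A1. Of 62 called gene comparisons, 62 were kept by DESeq2, 62 with no filter, 60 with RLE size factors, 61 with collagen genes left out of the scaling, 59 with only the compared groups, 58 within 1 count table, and 56 with a replicate block. These 62 include 4 of COL11A2. Of 39 that could be fitted with at least 10 counts in every library, 36 were kept. Leaving out 1 library at a time kept 168 calls and ended 102.

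Counts of collagen chains called against native ranged from 7 to 14 in stented static, 10 to 18 in stented high-flow, 8 to 15 in high-flow and 4 to 8 in low-flow when 1 library was left out, and from 0 to 5 in stented high-flow against stented static. DESeq2 called 20 in stented static. With at least 10 counts in every library, which leaves 25 chains, 8, 12, 9 and 6 were called against native. Fitting only the 2 groups gave 25 in low-flow against native. For stented high-flow against stented static there were 12 with DESeq2, 9 with no filter, 0 with only the 2 groups, and 1 each with RLE size factors, at least 10 counts in every library, 1 count table and the replicate block. For low-flow against high-flow there were 2 with DESeq2 and 1 each with no filter and the replicate block. Within 1 count table, stented high-flow against high-flow gave no value, since the groups are in different tables. The cause of these shifts was not tested.

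The replicate block otherwise gave 13, 15, 15 and 12 calls against native. The calls it ended were those of COL14A1 (0.127), COL15A1 (0.0779), COL8A2 (0.162), COL28A1 (0.111) and COL6A1 (0.153) in stented high-flow against native and COL5A2 (0.112) in stented high-flow against stented static, and the one it added in low-flow against high-flow was COL17A1 (0.0311). Replicate numbers are shared, but the experiment numbers differ and same-numbered libraries correlated at -0.329 to 0.183 in their deviations from group means, so the pairing was not established. The collagen share in native was 8.47% without mitochondrial genes and 8.74% on TMM-scaled totals, and in low-flow 9.90% and 9.01%. On TMM-scaled totals low-flow was thus no longer apart from native.

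Directions turned only in uncalled values. COL1A1 in stented high-flow was -0.10 with the replicate block, and COL23A1 in low-flow was 0.0059 with collagen genes left out of the scaling, 0.0075 with no filter, 0.00098 with only the 2 groups and 0.022 with the replicate block. When 1 library was left out, log2 fold changes of 21 uncalled gene comparisons crossed 0. In high-flow against native they ran from -0.21 to 2.71 (COL12A1), -0.093 to 1.61 (COL17A1), -0.94 to 0.54 (COL1A1), -1.29 to 0.57 (COL1A2), -0.34 to 1.27 (COL5A1), -1.20 to 0.32 (COL5A3) and -0.60 to 0.25 (COL6A2). In low-flow they ran from -0.054 to 0.33 (COL1A1), -0.13 to 0.27 (COL1A2), -0.17 to 0.19 (COL23A1), -0.78 to 0.25 (COL2A1), -0.052 to 0.018 (COL4A2), -0.30 to 0.25 (COL4A5), -0.047 to 0.36 (COL5A3) and -0.22 to 0.77 (COL8A1). In stented static they ran from -0.82 to 0.20 (COL5A1), -0.57 to 0.24 (COL5A2) and -0.16 to 0.036 (COL6A2), and in stented high-flow from -0.085 to 0.67 (COL1A1). COL3A1 ran from -0.59 to 1.15 in low-flow against high-flow, and COL8A1 from -0.41 to 0.37 in stented high-flow against high-flow.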
